A study of Homo sapiens with 27 samples.

Results

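The translation initiation factors of Panc1 cells were followed here as the 54 rows of the count table whose gene symbol begins with EIF and a digit, out of 21487 rows in all. The name pattern matched 56 rows, and the rule left out EIF4EBP1 and EIF2AK3 by name. The rule used no measured value. Of the 54 members, 47 had enough counts to be tested. EIF2A, EIF4E3, EIF4EBP3 and EIF4ENIF1 were listed at 0 in every library, like 3417 rows of the table, and no statement on their expression is made from that. EIF1AY reached at most 7 counts, EIF2S3B at most 5 and EIF4E1B at most 1, and these were not tested either.

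Initiation factors bring the small ribosomal subunit, the initiator tRNA and an mRNA together. The cap-binding complex eIF4F and the subunit-bound complex eIF3 recruit the mRNA, eIF2 delivers the initiator tRNA in a GTP-bound form, and eIF1, eIF1A and eIF5 govern scanning and the choice of the start codon. Stress kinases phosphorylate the alpha subunit of eIF2, which blocks its exchange factor eIF2B, and eIF4E-binding proteins hold back the cap-binding protein eIF4E when mTORC1 is inactive.

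Panc1 is an established line of human pancreatic ductal adenocarcinoma. The cells were parental or came from clone A or clone B, each a CRISPR-Cas9 knockout of ARNT, the dimer partner of the hypoxia-inducible factors. Each knockout line is 1 clone, so what a clone shows and what loss of ARNT does cannot be told apart in 1 clone alone. Each line was kept for 48 hours in 1 of 3 conditions: 20% O2 (normoxia) in regular medium, 1% O2 (hypoxia) in that medium, or the same low oxygen in TIFM, a medium made to resemble the interstitial fluid of pancreatic tumours. Regular medium was DMEM with serum and antibiotics. The 9 groups held 3 libraries of polyadenylated RNA each, and the labels do not say whether replicates were separate cultures, so p-values measure the spread between these libraries, which may be technical.

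The 27 libraries held 26057022 to 38341713 counts each, with a median of 31727174. The members took 1.19 to 1.90% of the counts of a library. The 3 libraries of clone A in TIFM stood apart: their scaling factors were 0.777 to 0.890 against 0.925 to 1.08 in the others, and their biological coefficient of variation was 29.4% against 14.1% over all libraries. ARNT itself was at 68.3 to 75.3 CPM (counts scaled to a common library size) in parental normoxia, 73.1 to 77.4 in clone A and 63.0 to 65.5 in clone B, and neither clone was called different (adjusted p = 0.50 and 0.20). A small edit need not lower the amount of an mRNA, so this level does not check the knockout labels. The 6 epithelial markers of Panc1 all passed the count filter. With TIFM 2 rose and 3 fell in parental cells and 1 rose and 3 fell in each clone. Of all genes 42.2%, 67.2% and 53.7% were called with TIFM in parental cells, clone A and clone B. The lines did not share 1 epithelial profile: CDH1 had 824 to 2094 counts a library in parental cells and 40 to 89 in the clones. KRT8 had 156445 to 190278 counts in parental hypoxia and 35654 to 43343 in parental TIFM. Of the markers of other cell types, 0 of 5 for acinar and islet cells passed, 2 of 5 for leukocytes, 2 of 3 for endothelium and 2 of 2 for hepatocytes. PTPRC, the leukocyte marker CD45, reached at most 17 counts a library, LYZ at most 36 and the endothelial PECAM1 at most 35. CD68, a lysosomal protein used as a macrophage marker, had 2481 to 6193 counts in every library, and an annotated transcript on the same strand overlaps 81.7% of its exon bases. The liver gene ALB (albumin) was at 101, 75 and 176 counts in parental TIFM, at 227, 208 and 0 in clone A TIFM and at 117 in clone B in hypoxia replicate 3, and at 4 or fewer elsewhere, and its part in the TIFM results was not tested.

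All levels below are CPM scaled by trimmed mean of M values, and differences are log2 fold changes with their standard error (SE). A gene was called at an adjusted p under 0.05 over the 13943 genes tested. Levels are compared between genes only per kilobase of exon. On that scale EIF3K, a peripheral eIF3 subunit, led the members in 8 of the 9 groups, at 253 CPM per kb in parental hypoxia and 414 in clone B in TIFM. EIF1, the small factor that holds the scanning ribosome open, led in clone A in TIFM at 943 CPM per kb, where EIF3K stood at 775. In TIFM EIF1 was second in parental cells (259) and in clone B (379).

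More members were called with TIFM than with low oxygen, as were more of all tested genes. Hypoxia changed 13 of the 47 tested members in parental cells, 1 higher and 12 lower, where 30.2% of all tested genes were called (15.4% higher and 14.9% lower). In clone A the numbers of members were the same, where 22.2% of all genes were called (10.4% higher and 11.8% lower). In clone B 0 members rose and 1 fell, where 9.3% of all genes were called (4.46% higher and 4.84% lower). The median difference of the 47 members was -0.13, -0.16 and -0.08 for parental cells, clone A and clone B, against -0.00, -0.01 and -0.01 over all genes. These counts depend on which libraries enter the fit. With only the libraries compared they were 21 for parental cells (6804 of all genes called) and 17 for clone B (4242). Without the TIFM libraries they were 23 (6775) and 14 (3925), and without clone A in TIFM 16 (5595) and 8 (2516).

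TIFM, set against hypoxia in regular medium, changed 23 members in parental cells (17 higher and 6 lower) with 42.2% of all genes called, 21.8% higher and 20.4% lower. TIFM was not tested against normoxia, so a rise with TIFM need not be a rise above the normoxia level. For clone A the count was 41 (32 higher and 9 lower) with 67.2% of all genes called, 33% higher and 34.2% lower. The count for clone B was 31 (24 higher and 7 lower) with 53.7% called, 25.9% higher and 27.9% lower. The members' median was 0.20, 0.79 and 0.32 in that order, against -0.00, -0.03 and -0.03 over all genes. Scaling by library totals put the median of all genes at -0.12, -0.33 and -0.19, and the split of the members was then 14 higher and 7 lower, 28 and 11, and 20 and 11. In all 3 lines 17 members rose with TIFM and 3 fell (EIF5, EIF4G2 and EIF2AK1), and no member was called in opposite directions. EIF1AX and EIF3E were called in no line. Differences of 2-fold or more were called for 3 members in parental cells. They numbered 19 for clone A (17 higher and 2 lower) and 5 for clone B (4 higher and 1 lower). The shares of all genes called in all 3 lines, or at 2-fold or more, were not computed. These counts are therefore not a result about the members as a group.

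**Figure D1:**
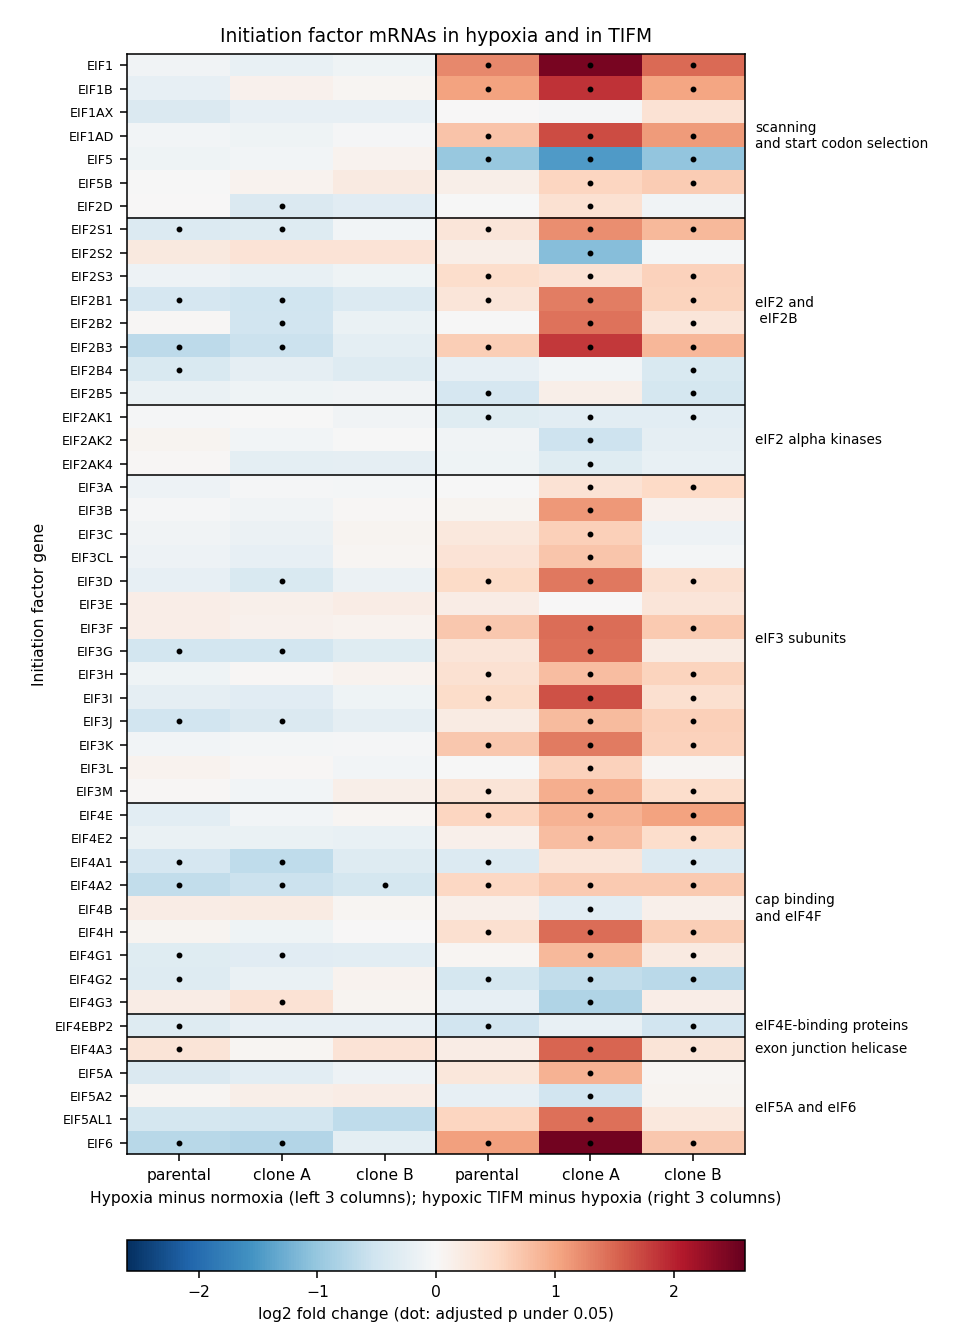
Log2 differences of the 47 tested members (rows, ordered by role) in the 6 comparisons of conditions within a line (columns), with called cells marked. Most of the cells for TIFM in clone A are called higher (32 of 47, against 33% of all tested genes). The hypoxia columns hold 13, 13 and 1 calls for parental cells, clone A and clone B, against 30.2%, 22.2% and 9.3% of all genes.

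Among the factors of scanning and start codon choice, EIF1 and EIF5 moved in opposite directions with TIFM. EIF1 was at 392 to 394 CPM in parental hypoxia and at 841, 1153 and 821 in the 3 parental TIFM libraries. Clone A was at 558, 622 and 663 in hypoxia and at 2774, 3624 and 3851 in TIFM. In clone B it was at 483 to 500 in hypoxia and at 1349, 1399 and 1372 in TIFM. The groups did not overlap in any line. EIF1 rose 2.39-fold in parental cells (log2 1.26, SE 0.12, adjusted p = 1.26e-08), 5.56-fold in clone A (2.48, SE 0.13, adjusted p = 1.68e-14) and 2.79-fold in clone B (1.48, SE 0.12, adjusted p = 3.78e-10). In bulk RNA, more cells with the transcript and more of it per cell cannot be told apart.

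EIF5, the protein that triggers GTP hydrolysis on eIF2 once the start codon is found, fell where EIF1 rose. It was at 366 to 375 CPM in parental hypoxia and at 188, 153 and 218 in parental TIFM. Clone A was at 423, 549 and 584 in hypoxia and at 251, 151 and 160 in TIFM. In clone B it was at 465 to 491 in hypoxia and at 229, 224 and 260.0 in TIFM. Every TIFM library lay below every hypoxia library of its line. EIF5 fell by 0.99 in parental cells (SE 0.15, adjusted p = 5.85e-06), by 1.47 in clone A (SE 0.15, adjusted p = 2.75e-09) and by 1.02 in clone B (SE 0.14, adjusted p = 2.14e-06).

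The ratio of EIF1 to EIF5 in CPM gathers both movements. It joins a member that rose with one that fell, so its rise with TIFM follows from the changes above and is no further test. It is not scaled for exon length and is compared only between libraries. With that scaling the parental normoxia libraries stood at 2.07 to 2.84. In CPM the ratio was 1.05 ± 0.16 in parental normoxia, 1.06 ± 0.01 in parental hypoxia and 5.26 ± 2.00 in parental TIFM (SD, n = 3). In clone A it was 1.20 ± 0.11 in hypoxia and 11.1, 24.1 and 24.1 in the 3 TIFM libraries. In clone B it was 1.03 in hypoxia and 5.81 ± 0.50 in TIFM. Clone A in TIFM replicate 1 lay well below replicates 2 and 3 of that group and still above every library of every other group.

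EIF1B, a close relative of EIF1, was at 20.5 to 20.9 CPM in parental hypoxia and at 40.9, 53.5 and 34.4 in parental TIFM, and rose by log2 1.05 (SE 0.13). The rises of clone A and clone B were 1.88 and 1.02. EIF1AD, an eIF1A-domain protein, rose by 0.74, 1.70 and 1.10 in parental cells, clone A and clone B. EIF5B, which joins the large ribosomal subunit, differed by 0.16 in parental cells without a call, and rose by 0.55 and 0.66 in the clones A and B. The call in clone A was lost under 2 of the alternative settings (highest adjusted p 0.153). Of the 7 tested genes grouped here with the scanning factors, EIF1AD and EIF2D included, 3 rose and 1 fell in parental cells. In clone A 5 rose and 1 fell, and in clone B 4 rose and 1 fell. The shares of all tested genes were 21.8% higher and 20.4% lower, 33% and 34.2%, and 25.9% and 27.9% in that order.

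The start codons of these genes are shown because eIF1 and eIF5 act on the sequence around a start codon, and their own start codons differ in it. The sequences run from 10 bases before the start codon to 4 after it on the annotated transcript in GRCh38 (GENCODE v29), with capitals for the base at position -3, the start codon and the base after it.
EIF1: atcgtatCgtATGTccg
EIF1B: ctagtatCgcATGTcca
EIF5: ataagccAaaATGTctg
EIF1AD: cgacttcAgcATGTctc
EIF6: acttggcCtcATGGcgg
EIF1AX: cgccaccGccATGCcca
The start codon of EIF1 lies at chr17:41689039-41689041 on the plus strand, that of EIF1B at chr3:40309942-40309944 (plus), that of EIF5 at chr14:103335861-103335863 (plus) and that of EIF6 at chr20:35284485-35284487 (minus), each in a coding exon. Efficient start codons in mammals tend to carry a purine at position -3 and a G after the codon. EIF1 and EIF1B carry neither feature, which holds for 5 of 53 members with an entry (9.43%) and for 7.06% of 18864 protein-coding genes. EIF5 and EIF1AD have the purine without the G, and EIF6 has the G without the purine. A purine at that position was present in 46 of the 53 members (86.8%, against 84.8% of all genes). RNA counts do not read the use of these codons.

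**Figure D2:**
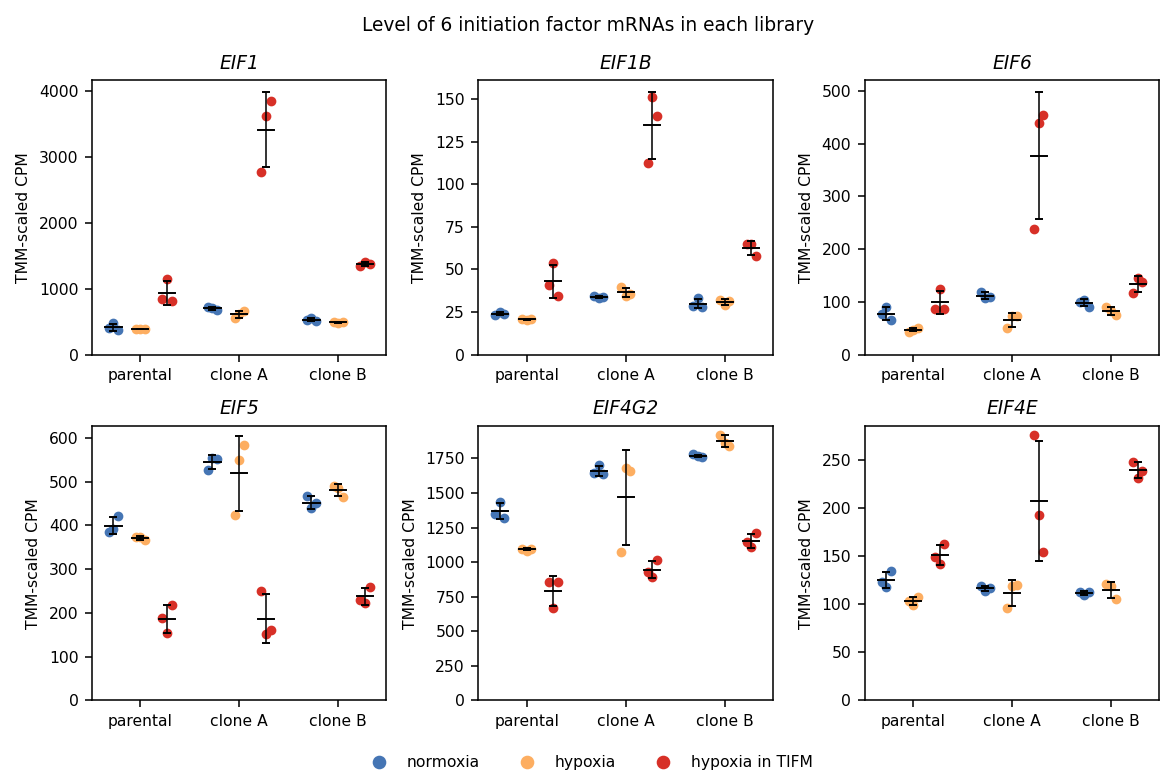
Level of EIF1, EIF1B, EIF6, EIF5, EIF4G2 and EIF4E in TMM-scaled CPM (linear axis from 0) in each of the 27 libraries, by line and condition, with 1 point per library and the mean and SD of each group of 3. EIF1 is highest in the clone A TIFM libraries (2774 to 3851 CPM), and EIF5 is lowest in the TIFM libraries of each line.

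Of the 8 tested subunit genes of eIF2 and its exchange factor eIF2B, 4 rose and 1 fell with TIFM in parental cells, 5 rose and 1 fell in clone A, and 5 rose and 2 fell in clone B. Beside these, all tested genes were called higher at 21.8%, 33% and 25.9% and lower at 20.4%, 34.2% and 27.9%. EIF2S1, the alpha subunit that the stress kinases phosphorylate, was at 143 to 151 CPM in parental hypoxia and at 187, 172 and 192 in parental TIFM. It was at 122, 171 and 171 in clone A hypoxia and at 429, 325 and 314 in clone A TIFM. In clone B it was at 201, 178 and 163 in hypoxia and at 340.4, 324 and 311 in TIFM. No groups overlapped. EIF2S1 rose by 1.20 in clone A (SE 0.12, adjusted p = 1.93e-09) and by 0.85 in clone B (SE 0.12, adjusted p = 1.19e-06). In parental cells the difference was 0.32 (adjusted p = 0.0304), a call that was lost in 5 of the 6 fits that left out 1 library, namely without any 1 of the parental hypoxia libraries or without parental TIFM replicate 1 or 3 (highest adjusted p over all settings 0.202).

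EIF2S3, the gamma subunit that binds GTP and the initiator tRNA, rose by 0.46, 0.38 and 0.60. The call in clone A was lost under 2 alternative settings (highest adjusted p 0.375). EIF2S2, the beta subunit, had only 31 to 150 counts a library, or 0.555 to 1.32 CPM per kb in the group means, where EIF2S1 stood at 26.1 to 63.0 and EIF2S3 at 48.9 to 132. Its values come from few counts for a subunit of the same complex, so its fall in clone A (by 1.11) is given as the count of this row only. Of the exchange factor, EIF2B3 was at 24.9 to 27.9 CPM in parental hypoxia and 38.9 to 46.4 in parental TIFM, and at 27.2 to 36.8 and 112 to 127 in clone A. Before scaling, EIF2B3 had 1282 to 1692 counts a library in parental normoxia and 1091 to 1303 in parental TIFM. From hypoxia to TIFM it rose by 0.65, 1.85 and 0.87 (adjusted p = 2.72e-05, 2.12e-13 and 2.12e-07). EIF2B5, the catalytic subunit, went the other way in parental cells, where it fell by 0.44 (adjusted p = 0.00204), and in clone B, where it fell by 0.46 (adjusted p = 0.000813), and differed by 0.15 in clone A without a call. Subunits of 1 exchange factor thus moved in different directions in the same libraries.

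No eIF2 alpha kinase among the members rose with TIFM. EIF2AK1, the kinase known as HRI that answers heme shortage and mitochondrial stress, was at 324 to 336 CPM in parental hypoxia and at 252 to 272 in parental TIFM. It fell by 0.32 (adjusted p = 0.00716), and in clones A and B by 0.27 and 0.28 (adjusted p = 0.0124 in both). The call in clone A was lost without clone A in TIFM replicate 1 (highest adjusted p over all settings 0.147), and that in clone B without clone B in hypoxia replicate 3 or clone B in TIFM replicate 1 (0.174). EIF2AK2, the double-stranded RNA sensor PKR, differed by -0.09 and -0.23 in parental cells and clone B without a call, and fell by 0.54 in clone A, a call lost with only the libraries compared (adjusted p = 0.0627). EIF2AK4, the amino acid sensor GCN2, differed by -0.12 and -0.20 without a call and fell by 0.32 in clone A, a call lost without clone A in TIFM replicate 3 (0.166). EIF2AK3, the endoplasmic reticulum sensor PERK that the rule leaves out, differed by 0.02 in parental cells without a call and rose by 0.83 and 1.15 in the clones.

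The eIF3 complex is the scaffold that links the small subunit to eIF4F. Of its 14 genes, 6 rose with TIFM in parental cells, and 13 and 8 in the clones A and B, and none fell, with medians of 0.33, 0.88 and 0.41. Over all tested genes 21.8%, 33% and 25.9% were called higher in these comparisons, and 20.4%, 34.2% and 27.9% lower. EIF3K was at 683 to 723 CPM in parental hypoxia and at 994, 1392 and 1060 in parental TIFM, and at 807 to 897 and 1655, 2178 and 2675 in clone A. EIF3K rose by 0.70, 1.35 and 0.61. EIF3F rose by almost the same amounts, 0.70, 1.46 and 0.69. The core subunit EIF3A, the largest protein of the complex, was at 962 to 1049 CPM in parental hypoxia and at 1014, 803 and 1141 in parental TIFM, which overlap, and differed by -0.02. EIF3A rose by 0.52 in clone B and by 0.37 in clone A, where 2 alternative settings ended the call (highest adjusted p 0.557). EIF3I, a core WD-repeat subunit, rose by 0.48, 1.65 and 0.41. Its call in parental cells was lost without parental TIFM replicate 2, and that in clone B without clone B in hypoxia replicate 2 or clone B in TIFM replicate 3 (highest adjusted p 0.0575 and 0.096). EIF3C and its near-identical copy EIF3CL share reads, so that their split is uncertain. EIF3C differed by 0.27 and -0.14 in parental cells and clone B without a call and rose by 0.61 in clone A. EIF3E was not called in any line and overlapped between clone A hypoxia (399 to 480 CPM) and clone A TIFM (674, 396 and 290.4).

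**Figure D3:**
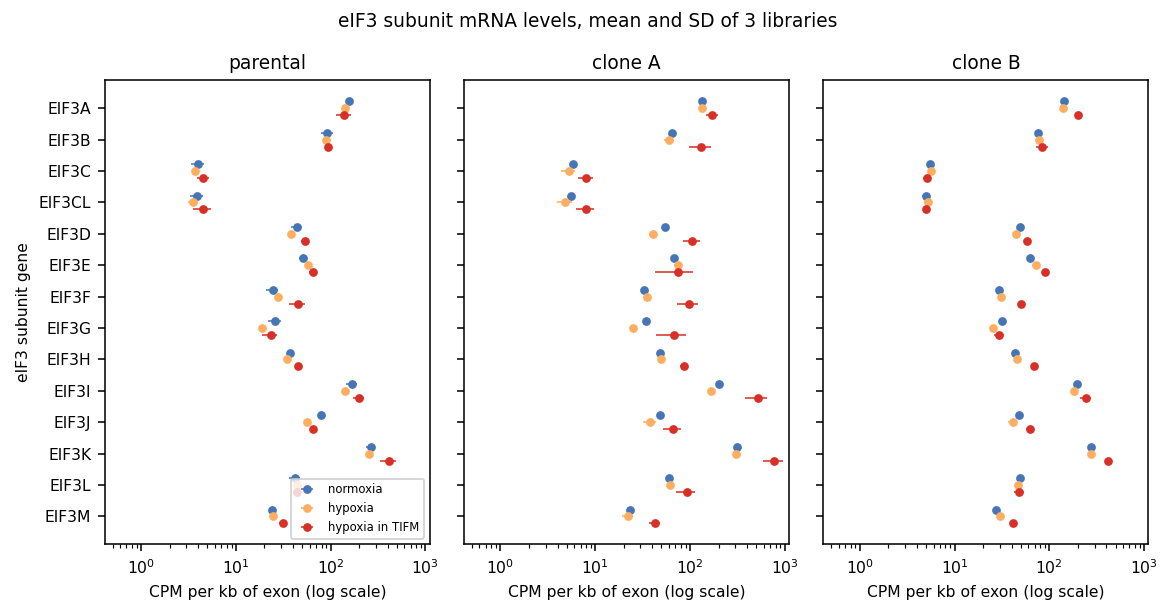
Level of the 14 eIF3 subunit genes (rows) in CPM per kb of exon (log axis) in normoxia, hypoxia and TIFM, 1 panel per line, with the mean and SD of 3 libraries. In the clone A panel 13 of the 14 genes were called higher in TIFM than in hypoxia, against 33% of all tested genes.

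The members of eIF4F and the cap-binding group did not move as 1 block. EIF4E, the cap-binding protein, was at 103, 99.2 and 108 CPM in parental hypoxia and at 149, 143 and 162 in parental TIFM. Clone A was at 95.7, 119 and 120.3 in hypoxia and at 277, 193 and 155 in TIFM, and in clone B at 106 to 121 and at 249, 232 and 239. All TIFM libraries lay above the hypoxia libraries of their line. EIF4E rose by 0.55 (SE 0.13, adjusted p = 0.00173), 0.90 (adjusted p = 1.86e-06) and 1.06 (adjusted p = 3.77e-07). EIF4E2, the cap-binding homologue known for its work with HIF-2 alpha in hypoxia, differed by 0.13 in parental cells without a call and rose by 0.79 and 0.45 in the clones.

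EIF4G2, the eIF4G relative DAP5 that lacks the eIF4E-binding site, was at 1083 to 1098 CPM in parental hypoxia and at 853, 668 and 854 in parental TIFM. Clone A was at 1075, 1679 and 1656 in hypoxia, with replicate 1 low, and at 893 to 1015 in TIFM. In clone B it was at 1840 to 1922 and at 1108 to 1208. The groups did not overlap. EIF4G2 fell by 0.46, 0.64 and 0.70 (SE 0.12 in each, adjusted p = 0.00272, 4.16e-05 and 2.28e-05). EIF4G1, the main scaffold, differed by 0.05 in parental cells without a call, and rose by 0.83 in clone A. Its rise in clone B, 0.23, was lost in 5 of 6 fits without 1 library, namely any 1 clone B hypoxia library or clone B in TIFM replicate 2 or 3 (highest adjusted p 0.496). EIF4G3 differed by -0.21 and 0.17 without a call and fell by 0.78 in clone A. The 3 scaffolds thus had 3 different patterns in the same libraries.

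Of the helicase and its helpers, EIF4A2 rose by 0.54, 0.69 and 0.67. EIF4H rose by 0.41, 1.46 and 0.64. EIF4A1 had 647 to 1677 counts a library, and other annotated genes on the same strand overlap 48.6% of its exon bases, so that its count depends on how shared reads were assigned. It fell by 0.36 in parental cells and by 0.35 in clone B, and differed by 0.31 in clone A without a call. The parental call was lost without any 1 of the hypoxia libraries or TIFM replicate 1 or 3 (highest adjusted p 0.135), and the clone B call without hypoxia replicate 1 or TIFM replicate 1 or 2 (0.164). EIF4EBP2, an inhibitor of eIF4E, was at 127 to 136 CPM in parental hypoxia and at 99.7, 88.6 and 90.3 in parental TIFM. It fell by 0.50 (adjusted p = 0.000504), and by 0.49 in clone B (adjusted p = 0.00039), and differed by -0.19 in clone A without a call. EIF4EBP1, the inhibitor that the rule leaves out, rose by 1.53, 1.84 and 0.78.

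EIF6, which keeps the ribosomal subunits apart and acts in the making of the large one, was at 43.8, 47.3 and 50.3 CPM in parental hypoxia and at 86.9, 125 and 86.3 in parental TIFM. Clone A was at 51.1, 72.5 and 73.9 in hypoxia and at 239, 440 and 454 in TIFM. In clone B it was at 74.9 to 89.5 and at 117, 145 and 139. No groups overlapped, and clone A in TIFM replicate 1 was again the lowest of its group. EIF6 rose by 1.08 (SE 0.19, adjusted p = 5.46e-05), 2.52 (SE 0.19, adjusted p = 2.68e-11) and 0.70 (SE 0.18, adjusted p = 0.00261). EIF5A, the hypusinated factor that frees stalled ribosomes, rose by 0.90 in clone A and differed by 0.29 and 0.05 elsewhere without a call. EIF5A2, its paralogue, differed by -0.20 and 0.07 in parental cells and clone B without a call. Its fall in clone A, by 0.49, was lost without clone A in hypoxia replicate 2 or clone A in TIFM replicate 2 or 3 (highest adjusted p 0.196). EIF4A3, the helicase of the exon junction complex, differed by 0.19 in parental cells without a call and rose by 1.52 in clone A. Its rise in clone B, 0.33, was lost with library totals and without clone B in hypoxia replicate 1 or 2 or TIFM replicate 2 or 3 (highest adjusted p 0.224).

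The members not yet named had several patterns across the lines. EIF3H, EIF3M and EIF3D, which belong to the outer and core parts of eIF3, rose by 0.41, 0.34 and 0.50 in parental TIFM, by 0.80, 0.94 and 1.37 in clone A and by 0.58, 0.46 and 0.41 in clone B. The EIF3M call in parental cells was lost under 1 alternative setting (adjusted p = 0.0762). EIF3B and EIF3G, RNA-binding subunits, differed by 0.06 and 0.31 in parental cells and by 0.12 and 0.22 in clone B without a call, and rose by 1.13 and 1.44 in clone A. EIF3L differed by -0.01 and 0.04 in parental cells and clone B and rose by 0.59 in clone A. The eIF2B subunit gene EIF2B1 rose by 0.31, 1.32 and 0.59, the first of these lost without any 1 parental hypoxia library or parental TIFM replicate 2 (highest adjusted p 0.184). EIF2B4 fell by 0.39 in clone B, a call lost without hypoxia replicate 3 or TIFM replicate 1 (0.0801), and differed by -0.22 and -0.06 in the other lines without a call. EIF4B, the helper that EIF4H resembles, differed by 0.13 in parental cells and clone B without a call. Its fall in clone A, by 0.27, was lost under 4 alternative settings and in 4 of 6 fits without 1 library, namely clone A in hypoxia replicate 1 or 3 or clone A in TIFM replicate 1 or 2 (0.177). EIF5AL1 is a copy of EIF5A with 8 to 36 counts a library, and its reads cannot be told apart from those of EIF5A with certainty.

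The response to TIFM was larger in clone A than in parental cells for many members. The difference between the 2 responses was called for 30 of 47 members, 27 higher and 3 lower, where 38.9% of all genes were called (19.3% higher and 19.6% lower). The median over the members was 0.59, against -0.03 over all genes. The largest were EIF6 (1.44, SE 0.26, adjusted p = 0.000125), EIF2B2 (1.44, SE 0.18, adjusted p = 1.46e-06), EIF4A3 (1.33, SE 0.18) and EIF1 (1.22, SE 0.17). The called differences in the other direction were EIF2S2, EIF4G3 (-0.56) and EIF4B (-0.40). EIF4G3 was lost in 6 of 12 fits without 1 library and EIF4B in 8 of 12 (highest adjusted p 0.0932 and 0.15). In clone B the responses differed for 2 members, EIF3A (0.54, SE 0.15, adjusted p = 0.0229) and EIF2S1 (0.53, SE 0.16, adjusted p = 0.0372), both higher, where 10.4% of all genes were called (4.06% higher and 6.34% lower). The calls were lost in 6 and 9 of 12 fits without 1 library (highest adjusted p 0.0688 and 0.105). The number of calls was 0 without clone B in hypoxia replicate 2 or 3, clone B in TIFM replicate 2, parental hypoxia replicate 1 or parental TIFM replicate 2. It was 1 without clone B in TIFM replicate 1 or 3, parental hypoxia replicate 2 or 3, or parental TIFM replicate 1. EIF4E missed the threshold there (0.51, adjusted p = 0.0844). The larger response of clone A came with the low scaling factors and the wide spread of its TIFM libraries, and the part of these in it was not tested.

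**Figure D4:**
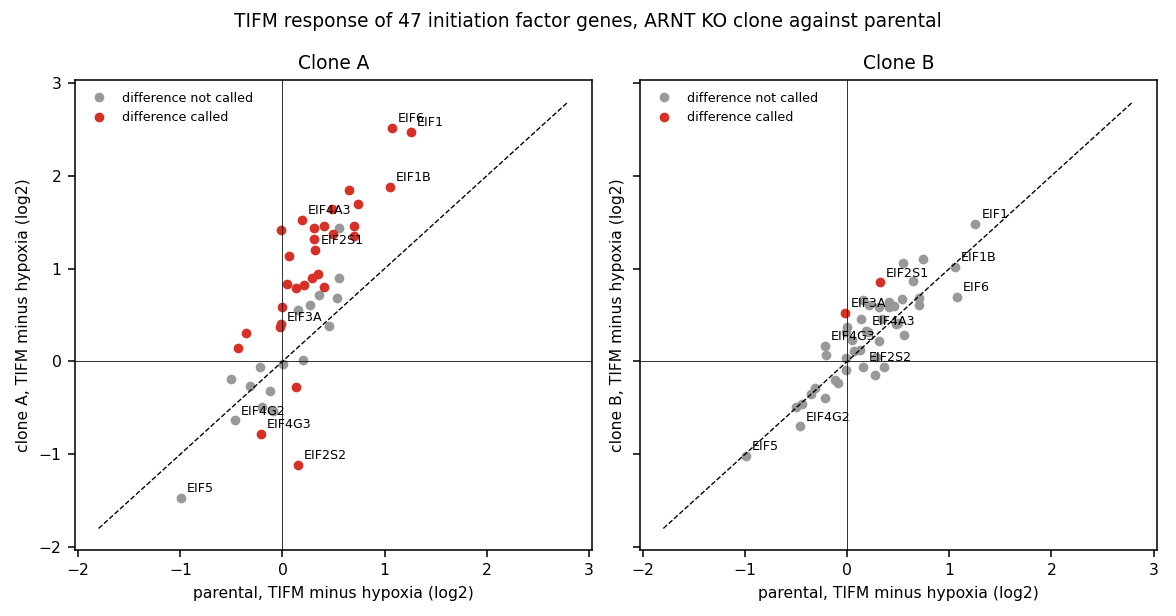
Log2 difference with TIFM in clone A and clone B (y axes) against that in parental cells (x axis), 1 point per tested member, with the line of equal response. Most clone A points lie above the line (the members' median difference is 0.59), and clone B points scatter around it (0.05). Both axes of each panel rest on separate libraries of each line.

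Members with short exon unions had higher log2 differences from hypoxia to TIFM. Over the 47 members the Spearman correlation of log2 difference and exon length was -0.52, -0.51 and -0.33 for parental cells, clone A and clone B, as a description across genes that share the same libraries. Over 13920 genes with a length it was -0.08, -0.16 and 0.04. In clone A the 24 shorter members had a median of 1.36 and the 23 longer ones 0.40, split at 5550 bases. For hypoxia minus normoxia the members' correlation had the opposite sign, at 0.29, 0.27 and 0.22 for parental cells, clone A and clone B. Over all genes it was 0.03, 0.09 and 0.02. The hypoxia libraries enter both comparisons, and their part in the TIFM correlation was not tested. EIF1, EIF6 and EIF3K are among the shorter members. RNA integrity is not given in the sources used here, and its part in this pattern was not tested.

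Hypoxia in regular medium lowered a small set of members. EIF4A2, the eIF4A paralogue of the cap complex, was at 344, 345 and 393 CPM in parental normoxia and at 223, 241 and 232 in parental hypoxia. In clone A it was at 441, 502 and 481 and at 365, 309 and 290 in the same order, and in clone B at 417, 387 and 408 and at 357, 279 and 251. No hypoxia library reached the normoxia libraries of its line. EIF4A2 fell by 0.64 (SE 0.11, adjusted p = 0.000139) in parental cells, 0.56 (SE 0.11, adjusted p = 0.0011) in clone A and 0.45 (SE 0.11, adjusted p = 0.0135) in clone B, and was the 1 member called in all 3. In clone B the call was lost without hypoxia replicate 2 or 3 or normoxia replicate 1 (highest adjusted p 0.108), which left 0 calls there.

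EIF6 was at 76.4, 90.6 and 66.1 CPM in parental normoxia, above the 43.8 to 50.3 of hypoxia. It fell by 0.72 in parental cells (SE 0.19, adjusted p = 0.00447) and by 0.76 in clone A (SE 0.19, adjusted p = 0.00476), and differed by -0.25 in clone B without a call (adjusted p = 0.429). In parental cells and in clone A, EIF6 was thus lower in hypoxia than in normoxia and than in TIFM. Both differences use the same hypoxia libraries, so they are not 2 separate responses. The parental TIFM and normoxia libraries overlapped, and TIFM was not tested against normoxia. With low oxygen EIF2B3 fell by 0.68 and 0.56 (adjusted p = 2.71e-05 and 0.000659) and EIF2B1, a regulatory subunit of eIF2B, by 0.43 and 0.53. EIF3J, a loosely bound subunit of eIF3, fell by 0.51 in parental cells (adjusted p = 0.00252). These calls kept in every fit that left out 1 library. EIF4A1 fell by 0.44 and 0.66, and its parental call was lost without hypoxia replicate 2 or normoxia replicate 2 (highest adjusted p 0.0757). EIF4G1 fell by 0.31 and 0.30, where the parental call was lost without the same 2 libraries (0.0864) and the clone A call without hypoxia replicate 1 or normoxia replicate 1 or 2 (0.129). EIF2S1 fell by 0.35 and 0.33, and 4 of 6 fits without 1 library lost the call in each line (highest adjusted p 0.0788 and 0.279).

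The upward calls in hypoxia were few and weak. EIF4A3 was at 157 to 192 CPM in parental normoxia and at 223, 224 and 205 in parental hypoxia, and rose by 0.33 (SE 0.12, adjusted p = 0.0463). The call was lost without any 1 hypoxia library or normoxia replicate 1 or 3 (highest adjusted p 0.179). EIF4G3 rose by 0.38 in clone A (adjusted p = 0.045), which 5 of 6 fits without 1 library lost (0.193). EIF4E differed by -0.28, -0.06 and 0.05, and EIF4E2 by -0.17, -0.16 and -0.19, all without a call. EIF4G2 fell by 0.33 in parental cells, a call that each of the 6 fits without 1 library lost (0.119), and EIF4EBP2 fell by 0.34, a call lost without hypoxia replicate 2 or normoxia replicate 1 (0.0578). The eIF2 alpha kinases differed by -0.26 to 0.07 without a call. No difference between the hypoxia response of a clone and that of parental cells was called by edgeR in the fit of all 27 libraries, where 6.23% of all genes were called for clone A (2.19% higher and 4.04% lower) and 4.73% for clone B (1.49% higher and 3.24% lower). At an unadjusted p under 0.05 there were 2 members for each clone, and DESeq2 called 0 and 1. In edgeR fits with only the libraries compared 4 members were called for each clone, without the TIFM libraries 4 and 3, and without clone A in TIFM 1 and 1.

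Promoters are shown for 3 members that were called in hypoxia, as the 250 bases before the annotated start of the gene (RefSeq, GRCh38.p14), with capitals for ACGTG and GCGTG on either strand, the core letters of sites that hypoxia-inducible factors bind.
EIF4A2: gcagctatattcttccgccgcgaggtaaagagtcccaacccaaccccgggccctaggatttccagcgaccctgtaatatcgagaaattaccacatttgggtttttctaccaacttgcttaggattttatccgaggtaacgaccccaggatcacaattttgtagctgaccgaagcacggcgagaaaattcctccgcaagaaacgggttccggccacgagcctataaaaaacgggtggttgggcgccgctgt
EIF6: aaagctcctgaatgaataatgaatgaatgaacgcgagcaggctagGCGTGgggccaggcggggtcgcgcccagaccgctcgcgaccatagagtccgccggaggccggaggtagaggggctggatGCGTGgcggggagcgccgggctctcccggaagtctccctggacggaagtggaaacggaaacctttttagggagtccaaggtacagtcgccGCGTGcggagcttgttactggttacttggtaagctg
EIF4A3: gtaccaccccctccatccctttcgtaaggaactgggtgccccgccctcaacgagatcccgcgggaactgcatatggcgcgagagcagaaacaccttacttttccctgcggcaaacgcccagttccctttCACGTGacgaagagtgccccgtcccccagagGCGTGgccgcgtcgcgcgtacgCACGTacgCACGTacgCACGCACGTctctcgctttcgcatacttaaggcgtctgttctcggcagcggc
The window of EIF4A2 is chr3:186783327-186783576 on the plus strand, that of EIF6 chr20:35284718-35284967 on the minus strand and that of EIF4A3 chr17:80147129-80147378 on the minus strand. The window of EIF4A2, the member called lower in hypoxia in all 3 lines, holds neither set of letters. That of EIF6 holds GCGTG 3 times, and that of EIF4A3 holds ACGTG 5 times and GCGTG 2 times, counted on both strands, with the E-box CACGTG counted within ACGTG. Of the 46 members with a promoter in the table, 30 held ACGTG or GCGTG (65.2%), against 43.1% of 27305 promoters of the same length. Those 27305 were not restricted by gene type and not matched for base content or expression, which limits each of these comparisons. CACGTG was in 12 of 46 (26.1%, against 6.49%). TGATGNAA, the letters of ATF4 and C/EBP elements, was in 0 of 46 against 3.19%. These are matches of letters, which show neither binding nor its absence.

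Against parental cells in normoxia, clone A was called higher for 13 members and lower for 4, where 31.6% of all genes were called (15.9% higher and 15.8% lower). In hypoxia it was higher for 16 and lower for 6, with 41.4% of all genes called (20.5% and 20.9%), and in TIFM higher for 34 and lower for 5, with 61.7% called (30.9% and 30.7%). Clone B was higher for 6 members and lower for 3 in normoxia, where 26.5% of all genes were called (13.2% higher and 13.3% lower). In hypoxia clone B was higher for 15 and lower for 3, with 35.9% called (16.9% and 19%), and in TIFM higher for 19 and lower for 2, with 47.5% called (22.1% and 25.4%). The 9 calls of clone B in normoxia became 23 with only the libraries compared, 22 without the TIFM libraries and 14 without clone A in TIFM, and leaving out 1 library left 3 to 7. The lowest were 3 without clone B in normoxia replicate 2 or parental normoxia replicate 1, and 4 without clone B in normoxia replicate 1 or parental normoxia replicate 3. Without clone B in normoxia replicate 3 there were 5. In hypoxia 10 remained without clone B replicate 1 and 11 without parental replicate 1 or 2. EIF1 and EIF3H were the members called higher in both clones in all 3 conditions. In normoxia EIF1 was at 373 to 474 CPM in parental cells, 678 to 722 in clone A and 507 to 557 in clone B, which differ by 0.75 (adjusted p = 2.07e-05) and 0.35 (adjusted p = 0.0315). The clone B call was lost without clone B replicate 1 or 2 or parental replicate 1 or 3 (highest adjusted p 0.165), and that in hypoxia without any 1 library of the 6 compared (0.0857). The EIF3H call for clone B in normoxia (0.23) was likewise lost without any 1 of the 6 libraries and with no filter on low counts (0.0931).

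The 2 members lowest in clone A against parental cells in normoxia both lie on the X chromosome. EIF1AX, the eIF1A that scans with eIF1, was at 158, 137 and 174 CPM in parental normoxia and at 67.9, 67.6 and 74.1 in clone A, lower by 1.16 (SE 0.17, adjusted p = 5.4e-06). Clone B stood at 125 to 135 and was not called. EIF2S3 was at 351, 368 and 335 in parental normoxia and at 188, 198 and 195 in clone A, a difference of -0.86 (SE 0.08, adjusted p = 2.49e-09), and at 326 to 332 in clone B. Both genes stayed lower in clone A in hypoxia (-1.01 and -0.91) and in TIFM (-1.05 and -0.99). Their neighbours, chosen after the values were seen, were lower too. Of the tested genes within 3 Mb of EIF1AX 16 of 16 were lower in clone A, with a median of -1.15, and of those near EIF2S3 13 of 13, with a median of -1.07. Between 10 and 20 Mb of that chromosome 39 of 41 genes were lower in clone A, and between 20 and 30 Mb 18 of 18, with a median of -1.03, where clone B had -0.15. The 18 genes include EIF1AX and EIF2S3 themselves. Both stretches overlap the 3 Mb windows, so these counts are not separate from those above.

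In normoxia some members on chromosomes 7 and 15 had differences of the same sign as their neighbours. EIF3J on chromosome 15 was at 249 to 260 CPM in parental normoxia, 153 to 158 in clone A and 153 to 155 in clone B, a difference of -0.71 and -0.72 (adjusted p = 4.95e-05 and 5.26e-05). Genes within 3 Mb had medians of -0.45 and -0.67. In TIFM EIF3J differed by 0.04 and -0.05 without a call, where its neighbours stood at -0.56 and -0.57. EIF2AK4, on the same chromosome, was lower in clone B by 0.41 (adjusted p = 0.00304), where its neighbours had a median of -0.50 and the whole of chromosome 15 one of -0.67. EIF2AK1 on chromosome 7 was at 251 to 261 CPM in clone B against 315 to 367 in parental cells (-0.39, adjusted p = 0.00197), and 29 of its 32 neighbours were lower. In clone A EIF2AK1 differed by 0.22 without a call, and its neighbours had a median of 0.17. EIF3B, also on chromosome 7, was lower in clone A in normoxia by 0.52 with neighbours at -0.36, and higher in TIFM by 0.49 with neighbours at -0.22. The TIFM call was lost under 1 alternative setting (adjusted p = 0.113). Across the 47 members the difference of a member and the median of its neighbours had a Pearson correlation of 0.78 (Spearman 0.48) for clone A in normoxia and 0.70 (Spearman 0.36) for clone B, as a description over genes that share libraries. Copy number is not given in the sources used here and its part was not tested.

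**Figure D5:**
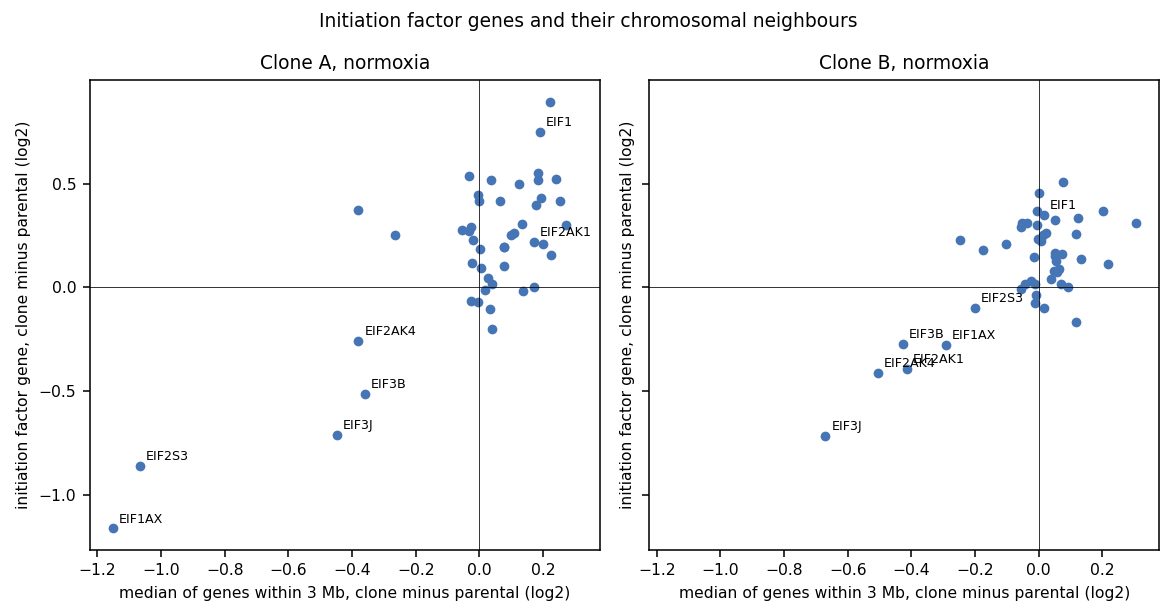
Log2 difference of each tested member between a clone and parental cells in normoxia (y axis) against the median of the tested genes within 3 Mb of it (x axis), for clone A and clone B. EIF1AX and EIF2S3 lie lowest in clone A next to neighbours at -1.15 and -1.07.

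Other called members, picked after the values were seen, differed from parental cells by more than the median of the genes around them. Genes picked for large differences tend to exceed such a median, so this is a description and not a test. EIF1B was higher in clone A by 0.82 in hypoxia (adjusted p = 8.32e-06), where its neighbours had a median of 0.01, and by 1.65 in TIFM. EIF4G2 was at 1762 to 1779 CPM in clone B in normoxia against 1321 to 1437 in parental cells, and at 1840 to 1922 against 1083 to 1098 in hypoxia, a difference of 0.78 (SE 0.12, adjusted p = 9.02e-06) with neighbours at 0.30. EIF6 was higher in clone B in hypoxia by 0.81 (adjusted p = 0.00125) with neighbours at 0.18, and its normoxia difference of 0.34 was not called. EIF2B3 was higher in clone B by 0.72 in hypoxia, with neighbours at -0.03, and by 0.94 in TIFM. EIF3C was higher in both clones in normoxia, by 0.55 and 0.46, with the limit on its copy given above. The clone B call was lost without clone B replicate 2 or parental replicate 1 or 3 (highest adjusted p 0.105).

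The eIF2 alpha cycle outside the members showed TIFM calls as well. Of its 12 genes 7 rose and 2 fell with TIFM in parental cells, 8 rose and 2 fell in clone A, and 7 rose and 2 fell in clone B, where 42.2%, 67.2% and 53.7% of all genes were called in either direction. ATF4, the transcription factor whose translation rises when eIF2 alpha is phosphorylated, rose by 1.32, 1.65 and 1.35 with TIFM. In hypoxia it rose by 1.00 in parental cells (adjusted p = 2e-06) and differed by 0.09 and 0.33 in the clones without a call. The clones already stood higher in normoxia. ATF4 had 3371 to 4080 counts a library there in parental cells, 11996 to 13711 in clone A and 7085 to 7579 in clone B. The counts in hypoxia were 8048 to 8436, 11352 to 15295 and 7470 to 9807 in the same order. PPP1R15A, the phosphatase subunit GADD34 that restores eIF2, rose by 2.19, 4.01 and 2.29 with TIFM. Of 17 regulators of eIF4F and poly(A) binding, 5 rose and 4 fell in parental cells, 6 and 5 in clone A, and 6 and 4 in clone B, against the same shares of all genes. PDCD4, which binds and blocks eIF4A, rose by 0.56, 0.81 and 0.80. PABPC1, the poly(A)-binding protein, rose by 0.24 in parental cells and differed by 0.16 and 0.06 in the clones without a call.

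In hypoxia 2 regulators moved in opposite directions between the lines. EEF2K, the kinase that inhibits elongation factor eEF2, rose by 1.05 in parental cells, fell by 0.50 in clone A and differed by -0.22 in clone B without a call. MKNK2, a kinase of eIF4E, rose by 0.56 in parental cells and fell by 0.59 and 0.68 in the clones. Of the recycling and reinitiation factors, MCTS1 fell by 0.36 and 0.41 with hypoxia in parental cells and clone A and rose by 0.55, 1.44 and 0.88 with TIFM. Its partner DENR fell by 0.38 with hypoxia in parental cells. ABCE1, which splits the ribosome, differed by 0.10 in parental TIFM without a call and rose by 0.54 and 0.64 in the clones. Of the enzymes that make hypusine on eIF5A, DOHH rose by 1.43 with TIFM in clone A and differed by 0.40 and 0.24 in the other lines without a call, and DHPS was not tested. The elongation factors EEF1A1 and EEF2 differed by 0.14 and -0.24 in parental TIFM, 0.10 and 0.12 in clone A and 0.15 and -0.42 in clone B, without a call.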

How the data were processed

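Polyadenylated RNA of 27 Panc1 libraries was aligned with HISAT2 and counted with featureCounts on GRCh38, per the submitters' processing notes. Their versions, the annotation and the strand setting are not stated in those notes. The authors deposited 1 table of raw counts per gene ID, with 21487 rows. Symbols from a gene name table were found for 21383 IDs. Coordinates and exon lengths are from GENCODE v29 and promoters from RefSeq (46 of 54 members).

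Counts were tested in R 4.3.3 with edgeR 4.0.16 (robust quasi-likelihood fit of 9 group means on 27 libraries, trimmed mean of M values, filterByExpr with a minimum count of 10 and total of 15, Benjamini-Hochberg over 13943 genes, threshold 0.05). The scripts were tested on simulated data. Depth was 26057022 to 38341713 counts, and no libraries held identical values. The members and lists were chosen with earlier results of these data known. The text names, per comparison, up to 4 called members that rose most and up to 4 that fell most with at least 5 CPM in a group, a set named for their role, and context genes. Alternatives were library totals, RLE factors, DESeq2 1.42.0, no filter, only the libraries compared, the replicate number as a block, each library left out in turn and, added after seeing the data, 3 settings on the TIFM libraries.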

Additional observations from a re-analysis of the deposited data

Results flagged for a closer look

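The response to TIFM differed between clone A and parental cells by the test of the difference itself (edgeR, adjusted p under 0.05) for 30 members, as log2 clone A minus parental. Among the genes grouped here with the scanning factors these were EIF1 (1.22), EIF1AD (0.96), EIF1B (0.83) and EIF2D (0.41). Of eIF2 and eIF2B they were EIF2S1 (0.89), EIF2S2 (-1.27), EIF2B1 (1.01), EIF2B2 (1.44), EIF2B3 (1.20) and EIF2B5 (0.59). The eIF3 subunits were EIF3A (0.39), EIF3B (1.07), EIF3D (0.88), EIF3F (0.76), EIF3G (1.13), EIF3H (0.40), EIF3I (1.17), EIF3J (0.61), EIF3K (0.65), EIF3L (0.60) and EIF3M (0.59). The others were EIF4A1 (0.66), EIF4A3 (1.33), EIF4B (-0.40), EIF4E2 (0.66), EIF4G1 (0.79), EIF4G3 (-0.56), EIF4H (1.05), EIF5A (0.61) and EIF6 (1.44). In clone B the same test gave EIF2S1 (0.53) and EIF3A (0.54). These comparisons share the parental libraries. For clone A 25 of the 30 calls were kept in every fit that left out 1 library, and 20 in those and every alternative. For clone B 0 of 2 were.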

How the results depend on the processing

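No member call reversed under any setting. With only the libraries compared, the members called numbered 21 for hypoxia in parental cells, 17 in clone B, 29 for clone A and 23 for clone B against parental cells in normoxia, 31 for clone B in hypoxia, 4 for each difference of hypoxia responses and 4 for the TIFM response of clone B. Without the TIFM libraries they were 23, 14, 29, 22 and 29 for the first 5, and 4 and 3 for the hypoxia responses of clones A and B. Without clone A in TIFM they were 8 for hypoxia in clone B, 14 for clone B in normoxia, 1 and 1 for the hypoxia responses and 7 for the TIFM response of clone B. Library totals gave 3 for hypoxia in clone B and 1 for the TIFM response of clone B. DESeq2 gave 4 for hypoxia in clone B and 1 for its hypoxia response.

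Replicate numbers did not pair the libraries: over 36 pairs of groups, correlations of deviations ran from -0.19 to 0.45, and in 0 pairs did all exceed 0.1. With the replicate block, hypoxia in clone B had 3 calls, and all 280 member calls were kept.

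Leaving out 1 library gave 7 to 10 calls for hypoxia in parental cells (7 without parental hypoxia replicate 2 or normoxia replicate 2, 8 without hypoxia replicate 1 or 3), 6 to 12 in clone A (7 without hypoxia replicate 1 or normoxia replicate 1, 6 without normoxia replicate 2, 8 without normoxia replicate 3) and 0 to 1 in clone B. TIFM gave 20 to 22, 39 to 44 and 27 to 28 in parental cells, clone A and clone B. Clone A against parental cells gave 12 to 19, 15 to 22 and 37 to 39 in normoxia, hypoxia and TIFM, and clone B 3 to 7, 10 to 15 and 19 to 22. Both hypoxia responses stayed at 0, and the TIFM responses gave 25 to 33 and 0 to 2. Low counts (EIF2S2 at 31 to 150, EIF5AL1 at 8 to 36) limit what can be read of those members.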
